A study of Mus musculus with 6 samples.

Results

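The Th1 program genes are 10 genes through which CD4+ T cells become and act as type 1 helper cells. They are the cytokine gene Ifng, the transcription factor genes Tbx21, Hlx, Runx3 and Stat4, the receptor genes Il12rb1, Il12rb2, Il18r1 and Il18rap, and the chemokine receptor gene Cxcr3. They were taken by name, and all 10 of them were measured, each by 1 probe set, among 19937 genes. Mouse B6 naive CD4+ T cells from spleen had been activated in culture with antibodies to CD3 and CD28 for 2 days and rested overnight. They were then coated for 20 min with anti-CD3 alone or with anti-CD3 and anti-ICOS, and the antibodies were cross-linked for 8 h with a goat antibody to hamster immunoglobulin. RNA of every culture went on its own Affymetrix Mouse Gene ST array, which gave 4 arrays for anti-CD3 and 2 for the combination with anti-ICOS. The labels name no polarising cytokine, no allele other than the strain, and neither age nor sex, so all 6 cultures share the CD3 and CD28 priming and the CD3 restimulation. The titles name biological replicates without saying whether separate animals were used, so the p-values speak only of the spread between arrays.

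In a Th1 cell, IL-12 acts through the paired receptor chains IL-12Rβ1 and IL-12Rβ2 to activate STAT4, and T-bet, the product of Tbx21, sets the program in place. T-bet works with RUNX3 at the Ifng locus, and HLX is a homeobox factor that T-bet induces and that adds to Ifng expression. IL-18 acts through IL-18Rα (Il18r1) and its accessory chain (Il18rap), and together with IL-12 it can drive IFN-γ release without the T cell receptor. CXCR3 guides Th1 cells to sites where the IFN-γ-induced chemokines CXCL9 and CXCL10 are made. ICOS is a costimulatory receptor of the CD28 family that appears on T cells after activation.

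The sequences before the start sites of Ifng, Il18r1, Il18rap and Cxcr3 are shown because these genes shared 1 pattern over the arrays, described with the values. The fifth gene with that pattern was Il12rb1. Each run holds the 250 bases before the first base of the most upstream RefSeq start (GRCm38.p6), 5′ to 3′ on the strand of the gene. Ifng lies at chr10:118440796-118441045 on the plus strand, Il18r1 at chr1:40465302-40465551 on the plus strand, Il18rap at chr1:40515112-40515361 on the plus strand and Cxcr3 at chrX:101734148-101734397 on the minus strand. Capitals mark matches, on either strand, to 6 short motifs. These were the T-box half-site, TCACACC; the interferon-gamma activated site bound by STAT dimers, TTCNNNGAA; and the AP-1 site, TGACTCA. The Runx site was searched as TGTGGT, the core of the NFAT site as GGAAA and the TATA box as TATAAA. No matches in the printed windows overlapped.
Ifng: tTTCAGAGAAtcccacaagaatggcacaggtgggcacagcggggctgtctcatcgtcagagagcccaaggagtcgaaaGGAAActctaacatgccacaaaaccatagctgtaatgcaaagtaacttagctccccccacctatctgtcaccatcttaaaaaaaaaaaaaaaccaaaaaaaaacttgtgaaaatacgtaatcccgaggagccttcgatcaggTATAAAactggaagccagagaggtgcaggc
Il18r1: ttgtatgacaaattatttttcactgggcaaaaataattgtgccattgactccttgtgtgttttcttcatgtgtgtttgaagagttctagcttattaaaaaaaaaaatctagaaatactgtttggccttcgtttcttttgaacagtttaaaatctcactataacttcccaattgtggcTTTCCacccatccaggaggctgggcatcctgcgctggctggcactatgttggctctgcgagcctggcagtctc
Il18rap: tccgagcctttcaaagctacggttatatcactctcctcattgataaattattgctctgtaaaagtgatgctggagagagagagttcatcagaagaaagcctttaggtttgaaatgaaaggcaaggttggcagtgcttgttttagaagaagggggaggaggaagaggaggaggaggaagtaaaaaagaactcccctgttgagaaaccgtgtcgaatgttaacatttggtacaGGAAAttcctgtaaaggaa
Cxcr3: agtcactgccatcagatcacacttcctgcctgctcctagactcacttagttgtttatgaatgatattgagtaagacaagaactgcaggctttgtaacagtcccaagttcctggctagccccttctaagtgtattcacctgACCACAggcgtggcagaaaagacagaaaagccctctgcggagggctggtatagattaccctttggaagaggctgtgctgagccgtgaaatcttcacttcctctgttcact
In Ifng the capitals are, from left to right, an interferon-gamma activated site, an NFAT core and a TATA box. Il18r1 held an NFAT core on the other strand, Il18rap an NFAT core, and Cxcr3 a Runx site on the other strand. Promoter sequences matched 9 of the 10 genes. A T-box half-site was in 0 of these 9 windows, against 3.33% of 32851 windows of the same length. An AP-1 site was also in 0 of 9, against 4.46% of all windows. An interferon-gamma activated site was in 2 of the 9 (Ifng and Il12rb2), against 7.02%, and a Runx site in 2 (Runx3 and Cxcr3), against 14.0%. An NFAT core was in 6 of the 9, against 55.6% of all windows, and a TATA box in 1 (Ifng), against 12.4%. A match describes the letters of a window and is not evidence of binding.

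Anti-CD3 replicate 4 read like the anti-ICOS arrays in many genes, so its values are given apart throughout. Because it was singled out by its values, p-values of fits without it tend to be low and are given as description. The labels give no batch and do not settle how this array came to read so, and every difference of 4 against 2 arrays includes it. Median intensities lay between 108.9 and 114 on the 6 arrays. T cell genes were bright in every culture, with Cd3e, a chain of the CD3 complex, at 12.40 to 12.81 and Cd4 at 11.95 to 12.45 on the log2 scale. Genes of other cells were measured beside them: the CD8 chain gene Cd8b1 read 11.49 to 11.76 and the B cell receptor gene Cd79a 12.10 to 12.35. In these bulk cultures, fewer cells of a type and less RNA per cell cannot be told apart.

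With anti-ICOS, none of the 10 Th1 program genes passed the test over all 6 arrays. Ifng had the largest difference, at 1.39 on the log2 scale, while Tbx21, Runx3, Stat4 and Il12rb2 differed by 0.15 or less in either direction. By limma with Benjamini-Hochberg adjustment over all genes, 0 of 10 were called, with adjusted p between 0.327 and 0.799, where 0.271% of all genes were called higher and 0% lower. An unadjusted p under 0.05 was reached by 4 of 10, all with higher levels, against 6.24% of all genes higher and 5.56% lower. The median difference of the 10 genes was 0.29, against -0.031 over all genes, with 7 genes higher and 3 lower. Without anti-CD3 replicate 4, 6 of the 10 were higher past the threshold and 0 lower, where 17.1% of all genes were called higher and 12.7% lower. With array weights, 6 were higher and 1 lower, where 22.8% of all genes were higher and 24.4% lower. With the replicate number as a block, which leaves only 2 pairs of arrays, 7 of 10 were called, where 32.9% of all genes were. Against anti-CD3 replicate 4 as the only reference, where replicates 1 to 3 serve only to estimate the spread, 0 of 10 were called (adjusted p of 0.418 or more), and 0.176% of all genes were called higher and 0% lower. The median difference of the 10 was then 0.024, against -0.013 over all genes.

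**Figure D1:**
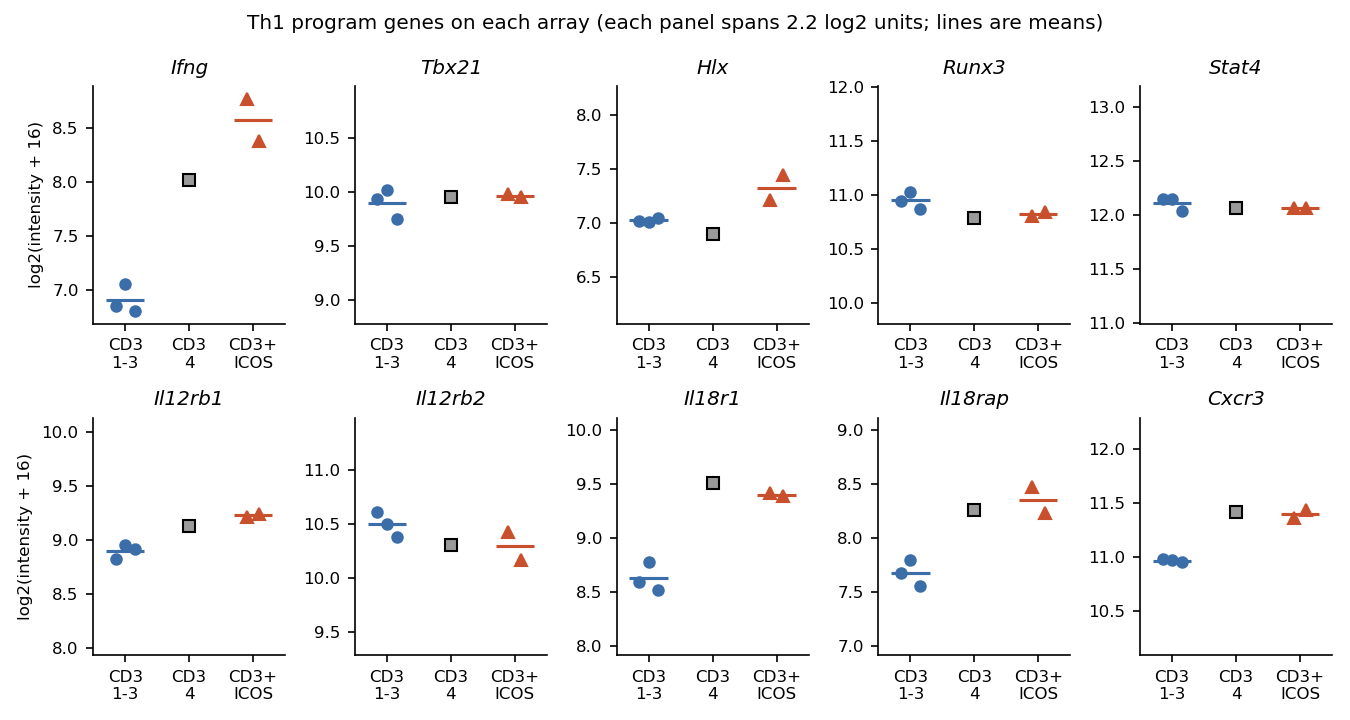
Level of each Th1 program gene on each array, as log2(intensity + 16); circles are anti-CD3 replicates 1 to 3, the square is anti-CD3 replicate 4, triangles are the 2 anti-CD3 plus anti-ICOS arrays, and lines are means. For Ifng, Il12rb1, Il18r1, Il18rap and Cxcr3 the square lies above all circles, nearer to the triangles than to the circles. For Ifng and Il12rb1 it lies below both triangles. For Hlx the square lies below all circles.

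Ifng encodes the effector cytokine of Th1 cells. Its intensity was 98.9, 116.4 and 95.9 in anti-CD3 replicates 1 to 3, 243.4 in replicate 4, and 419.0 and 315.3 with anti-ICOS. On the log2 scale, computed as log2(intensity + 16), it read 6.84, 7.05 and 6.81 in replicates 1 to 3, 8.02 in replicate 4, and 8.77 and 8.37 with anti-ICOS. Both anti-ICOS arrays were above all 4 anti-CD3 arrays, and replicate 4 stood between the other anti-CD3 arrays and the anti-ICOS arrays. The group means were 7.18 ± 0.57 (SD, n = 4) and 8.57 ± 0.28 (SD, n = 2), a difference of 1.39 ± 0.34 (SE, limma adjusted p = 0.327), or 2.62-fold on this scale. Without replicate 4 the difference was 1.67 ± 0.12 (limma adjusted p = 0.000163), or 3.18-fold. Against replicate 4 alone it was 0.55 ± 0.17, which did not pass the test (limma adjusted p = 0.622).

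Of the transcription factor genes, Tbx21, Stat4 and Runx3 had small differences. Tbx21, which encodes T-bet, read 9.93, 10.02 and 9.75 in anti-CD3 replicates 1 to 3, 9.96 in replicate 4, and 9.98 and 9.96 with anti-ICOS. The anti-ICOS values lay within the anti-CD3 range, and the difference was 0.054 ± 0.090 (SE, limma adjusted p = 0.739). It was 0.069 ± 0.087 without replicate 4. Under quantile normalization the sign turned, to -0.024, and without anti-CD3 replicate 3 the difference was -0.00078. Stat4, which carries the IL-12 signal to the nucleus, read 12.15, 12.15 and 12.03 in replicates 1 to 3, 12.06 in replicate 4, and 12.07 and 12.06 with anti-ICOS. Its difference was -0.033 ± 0.071 (limma adjusted p = 0.799), and its range over the 6 arrays, 0.12, was the smallest of the 10 genes. Quantile normalization turned its sign, to 0.0098, and replicate 4 as the only reference gave 0.0048. Runx3, a partner of T-bet that also acts in CD8 T cells, read 10.95, 11.03 and 10.87 in replicates 1 to 3, 10.79 in replicate 4, and 10.80 and 10.84 with anti-ICOS. All of the latter 3 arrays were below replicates 1 to 3, a pattern that 30.4% of all genes shared. The difference of Runx3 was -0.085 ± 0.086 with all arrays (limma adjusted p = 0.590), -0.13 ± 0.070 without replicate 4 (limma adjusted p = 0.204) and 0.037 ± 0.095 against replicate 4 alone.

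Hlx was the only one of the 10 genes in which replicate 4 lay on the far side of replicates 1 to 3 from both anti-ICOS arrays. It read 7.02, 7.02 and 7.04 in anti-CD3 replicates 1 to 3, 6.90 in replicate 4, and 7.22 and 7.44 with anti-ICOS. Both anti-ICOS arrays were above all 4 anti-CD3 arrays. The group means were 6.99 ± 0.065 (SD, n = 4) and 7.33 ± 0.16 (SD, n = 2), a difference of 0.34 ± 0.089 (SE, limma adjusted p = 0.382), or 1.26-fold. It was 0.30 ± 0.080 without replicate 4 (limma adjusted p = 0.0258) and 0.43 ± 0.11 against replicate 4 alone (limma adjusted p = 0.418). Without anti-ICOS replicate 2 it was 0.22. Among the 10 genes, Hlx and Ifng had the 2 largest differences against replicate 4 alone, and neither was called there. The 2 anti-ICOS arrays differed from each other by 0.23, with replicate 2 the higher, whereas for Ifng replicate 1 was the higher by 0.39.

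Neither gene of the IL-12 receptor chains passed the test over all 6 arrays. Il12rb1, the chain shared with the IL-23 receptor, read 8.83, 8.96 and 8.92 in anti-CD3 replicates 1 to 3, 9.14 in replicate 4, and 9.22 and 9.24 with anti-ICOS. Both anti-ICOS arrays were above all 4 anti-CD3 arrays, closest to replicate 4. The difference was 0.27 ± 0.096 (SE, limma adjusted p = 0.417), 0.33 ± 0.067 without replicate 4 (limma adjusted p = 0.0100) and 0.095 ± 0.090 against replicate 4 alone. Il12rb2, the chain that docks STAT4 and is kept by Th1 cells, read 10.61, 10.51 and 10.38 in replicates 1 to 3, 10.31 in replicate 4, and 10.43 and 10.17 with anti-ICOS. The groups overlapped, with 1 anti-ICOS array inside and 1 below the anti-CD3 range. The difference was -0.15 ± 0.12 (limma adjusted p = 0.498), -0.20 ± 0.10 without replicate 4 (limma adjusted p = 0.166) and -0.0080 ± 0.14 against replicate 4 alone. It was -0.28 without anti-ICOS replicate 1 and -0.019 without anti-ICOS replicate 2. Il12rb2 was lower past the threshold only with array weights, at -0.27 (limma adjusted p = 0.0237), and in the fit with the replicate number as a block.

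The IL-18 receptor chains had alike profiles, and they are encoded by neighbouring genes. Il18r1, the ligand-binding chain, read 8.59, 8.78 and 8.52 in anti-CD3 replicates 1 to 3, 9.51 in replicate 4, and 9.41 and 9.39 with anti-ICOS. Replicate 4 was the highest of the 6 arrays. The difference was 0.55 ± 0.26 (SE, limma adjusted p = 0.423) with all arrays, 0.77 ± 0.085 without replicate 4 (limma adjusted p = 0.000800), and -0.11 ± 0.11 against replicate 4 alone. Il18rap, the accessory chain, read 7.67, 7.80 and 7.56 in replicates 1 to 3, 8.26 in replicate 4, and 8.47 and 8.23 with anti-ICOS. Replicate 4 lay between the 2 anti-ICOS arrays. The difference was 0.53 ± 0.19 (limma adjusted p = 0.417), 0.68 ± 0.099 without replicate 4 (limma adjusted p = 0.00261) and 0.098 ± 0.13 against replicate 4 alone.

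Cxcr3, the chemokine receptor of Th1 cells, had the smallest spread of the 10 genes within anti-CD3 replicates 1 to 3, at an SD of 0.016, and replicate 4 stood apart from them. It read 10.98, 10.97 and 10.95 in these replicates, 11.41 in replicate 4, and 11.36 and 11.44 with anti-ICOS. The gap of replicate 4 to its group was 0.932 of the group's range, above Dixon's limit for 4 values. The difference was 0.32 ± 0.14 (SE, limma adjusted p = 0.423), 0.43 ± 0.062 without replicate 4 (limma adjusted p = 0.00256) and -0.016 ± 0.084 against replicate 4 alone.

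**Figure D2:**
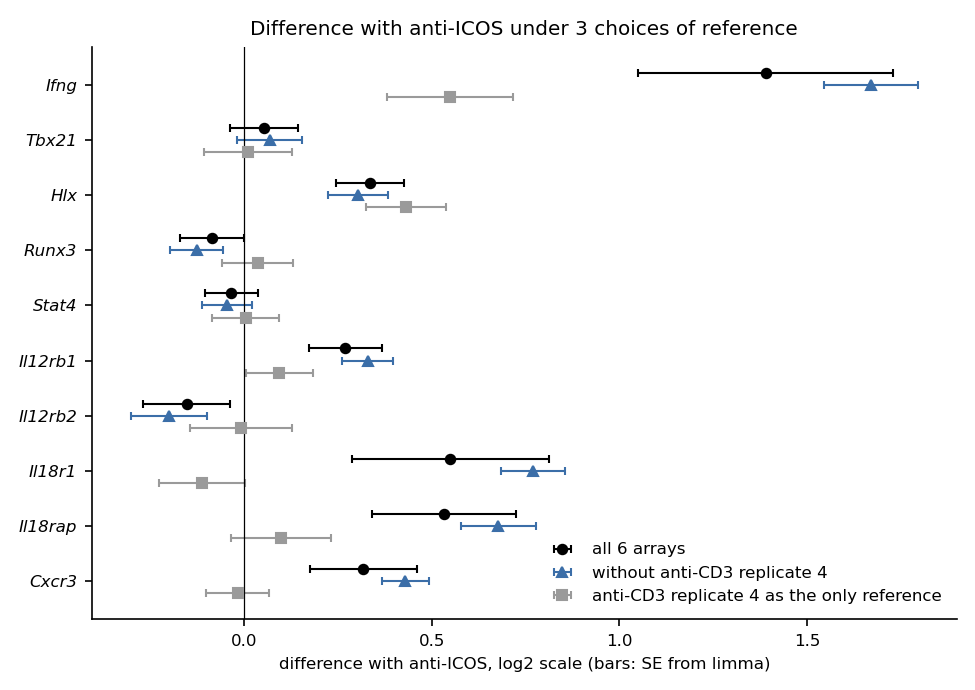
Difference with anti-ICOS of each Th1 program gene on the log2 scale, with bars for the standard error from limma, for all 6 arrays (circles), without anti-CD3 replicate 4 (triangles) and with that array as the only reference (squares). Only Ifng and Hlx keep their squares above 0.4, at 0.55 and 0.43.

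The 10 genes were then set side by side by how replicate 4 compared. Ifng, Il12rb1, Il18r1, Il18rap and Cxcr3 had replicate 4 and both anti-ICOS arrays above replicates 1 to 3, which is 5 of 10 genes against 25.9% of all genes. Relative to the mean of replicates 1 to 3, replicate 4 was higher by 1.12 for Ifng, 0.23 for Il12rb1, 0.88 for Il18r1, 0.58 for Il18rap and 0.45 for Cxcr3. The anti-ICOS mean was higher than the same replicates by 1.67, 0.33, 0.77, 0.68 and 0.43 in that order. Among these 5 genes the 2 shifts differed most for Ifng, and for Cxcr3 they were nearly equal. Runx3 had the reverse order, with those 3 arrays below replicates 1 to 3, while Tbx21, Stat4 and Il12rb2 had at least 1 of the 3 arrays within the range of replicates 1 to 3. Both anti-ICOS arrays were above all 4 anti-CD3 arrays in 3 of 10 genes (Ifng, Hlx and Il12rb1), against 8.51% of all genes, and below in 0 of 10, against 14.7%.

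**Figure D3:**
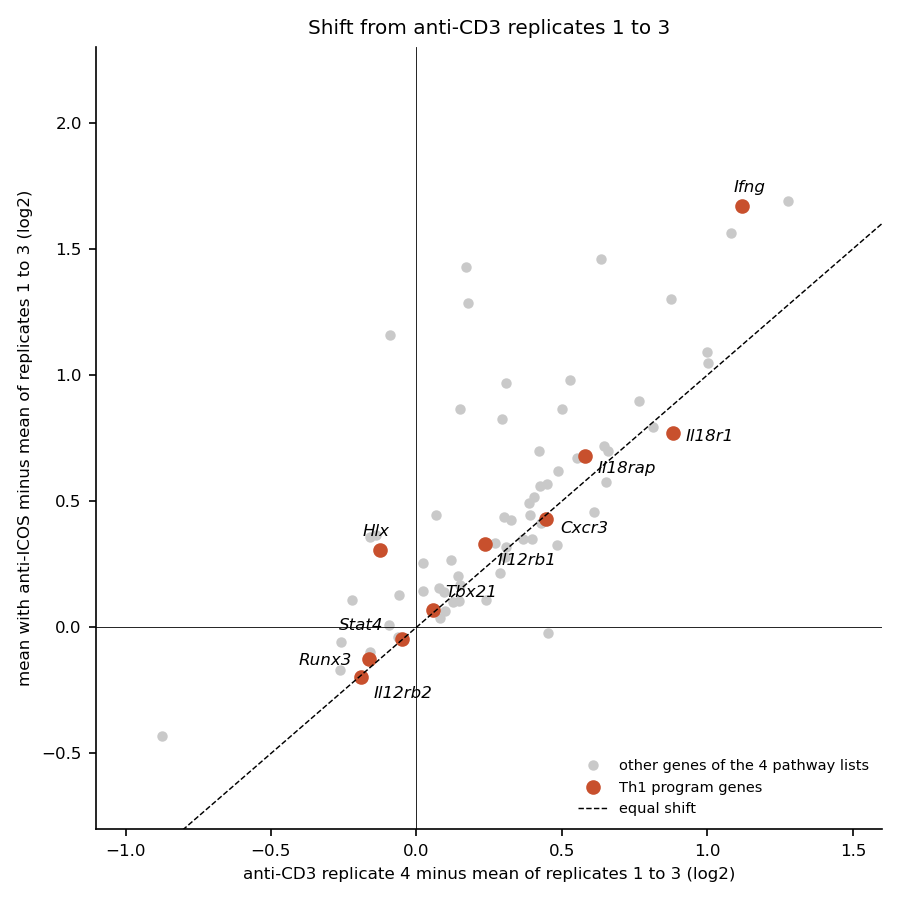
Shift of anti-CD3 replicate 4 (horizontal) and of the anti-ICOS mean (vertical) from the mean of anti-CD3 replicates 1 to 3. Both are on the log2 scale. Points are the Th1 program genes and the other genes of the 4 pathway lists, which include the regulators of opposing lineages. The dashed line marks equal shifts. Most Th1 program genes lie near the line, Ifng lies above it at 1.12 and 1.67, and Hlx lies at -0.13 and 0.30.

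Besides the members, 4 lists were read, here called the pathway lists, and 1 of them holds 13 measured regulators of opposing lineages. Together the 4 lists had 62 measured genes, here called the pathway genes. Of these, 1 passed the test over all 6 arrays, Gadd45b, which encodes an activator of the p38 kinase route through which IL-12 and IL-18 raise Ifng. It rose from 8.74 to 8.96 on the anti-CD3 arrays to 10.31 and 9.83 with anti-ICOS, by 1.24 ± 0.14 (SE, limma adjusted p = 0.0275). Anti-CD3 replicate 4, at 8.96, was close to the other anti-CD3 arrays here, and against it alone the difference was 1.11 (limma adjusted p = 0.105). The call also ended without anti-CD3 replicates 1, 2 or 3 (limma adjusted p = 0.148, 0.168 and 0.128), without anti-ICOS replicate 1 (0.0831) and with an offset of 64 (0.0685). Without replicate 4, 39 of the 62 genes were higher past the threshold and 1 lower, against 17.1% and 12.7% of all genes. Of these 39, 6 were regulators of opposing lineages.

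Among 16 measured genes of IL-12, IL-18 and IL-27 signalling the median difference was 0.23, with 1 called higher. Gadd45g, the related p38 activator, differed by 0.40 ± 0.093 and Jak2, the kinase bound to IL-12Rβ2, by 0.25 ± 0.068 (limma adjusted p = 0.296 and 0.389). Gadd45g, like Hlx, read lowest in replicate 4, at 7.33 against 7.39 to 7.61 in the other anti-CD3 arrays and 7.83 and 7.87 with anti-ICOS. For Jak2 replicate 4 lay within the range of the other anti-CD3 arrays, at 10.75 within 10.69 to 10.79, with 10.99 and 10.97 under anti-ICOS. Without replicate 4, 10 of the 16 were higher past the threshold and 0 lower, where 17.1% and 12.7% of all genes were. Against replicate 4 alone the median was 0.078.

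Of 14 measured genes of the IFN-γ receptor and response, 0 passed over all 6 arrays, and the median difference was 0.49. Cd274, which encodes the inhibitory ligand PD-L1, differed by 1.30 ± 0.21 and Socs1, a feedback inhibitor of JAK kinases, by 0.85 ± 0.17 (limma adjusted p = 0.10 and 0.18). Cxcl10, a ligand of CXCR3, differed by 1.18 ± 0.33 (limma adjusted p = 0.399), with 8.33 and 6.94 on the 2 anti-ICOS arrays against 6.39 to 6.55 on the anti-CD3 arrays. Without anti-ICOS replicate 1 its difference was 0.48 (limma adjusted p = 0.65), and without anti-ICOS replicate 2 it was 1.88 and past the threshold (limma adjusted p = 0.0141). Cxcl9, the other such ligand on the list and picked after its values were seen, read 9.37 and 6.83 with anti-ICOS against 6.52 to 6.86. For both ligands anti-ICOS replicate 1 was the high array, as it was for Ifng. That order also held for Il12rb2 and Rora but not for Hlx, and a link between Ifng and the ligands was not tested. The receptor genes Ifngr1 and Ifngr2, likewise named after their values were seen, differed by 0.038 ± 0.070 and 0.14 ± 0.077. Without replicate 4, 9 of the 14 were higher past the threshold and 0 lower, where 17.1% and 12.7% of all genes were. Against replicate 4 alone the median was 0.14.

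Of 19 measured Th1 cofactors and effectors, 0 passed over all 6 arrays, with a median difference of 0.45. Prdm1, which encodes the repressor BLIMP-1, differed by 0.89 ± 0.13, Id2, an inhibitor of E proteins, by 0.74 ± 0.18 and the chemokine receptor gene Cxcr6 by 1.29 ± 0.33 (limma adjusted p = 0.0671, 0.315 and 0.344). Without replicate 4, 14 of the 19 were higher past the threshold and 1 lower, where 17.1% and 12.7% of all genes were. The 1 lower gene of the list was Bhlhe40, a factor that supports Ifng and holds back Il10, named after its values were seen. It read 9.98, 9.91 and 9.70 in replicates 1 to 3, 8.99 in replicate 4, and 9.47 and 9.39 with anti-ICOS, so that replicate 4 was the lowest array. Against replicate 4 alone 0 of the 19 were called, with a median of 0.077.

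The list of opposing lineage regulators held 13 measured genes, and its name does not mean that each acts only against the Th1 fate. Of these regulators of opposing lineages 0 passed over all 6 arrays, and the median difference was 0.34, with 12 of 13 above 0, against -0.031 and 8442 of 19937 for all genes. Rora, a factor of Th17 cells, differed by 0.75 ± 0.14, Stat5a, which carries IL-2 signals, by 0.43 ± 0.086, and Maf, an activator of Il4, Il10 and Il21, by 1.08 ± 0.26 (limma adjusted p = 0.152, 0.189 and 0.310). Maf read 7.88 to 7.93 in replicates 1 to 3 and 8.78 in replicate 4, which Dixon's limit set apart from its group. Without replicate 4, 6 of the 13 were higher past the threshold and 0 lower, where 17.1% and 12.7% of all genes were. Against replicate 4 alone the median was 0.080. Whether the Th1 genes differ from the opposing regulators was not tested.

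The genes whose profiles were most like that of Ifng were taken among the 613 genes that span at least 1 on the log2 scale. By Pearson r over the 6 arrays they were Cxcr6 (r = 0.998), Ifrd1 (r = 0.996), Twsg1 (r = 0.996), Arhgap5 (r = 0.995) and the chemokine gene Ccl3 (r = 0.995). All 5 had replicate 4 and both anti-ICOS arrays above replicates 1 to 3. The points share their arrays, which fall into these 2 sets, and r is given as a description.

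Position was read from the order of protein-coding genes in RefSeq, with 4 neighbours on each side, as values with no test. Next to Ifng, the kinase gene Dyrk2 read 8.42 to 8.55 in replicates 1 to 3, 9.15 in replicate 4, and 9.17 and 9.09 with anti-ICOS. Of all genes 25.9% also had replicate 4 and both anti-ICOS arrays above replicates 1 to 3. Rap1b, farther from Ifng, had this order too, while Mdm1, Cand1, Grip1 and Helb did not. On the other side of Ifng, Iltifb, a copy of the IL-22 gene, read 5.13 to 5.42 on all anti-CD3 arrays and 5.19 on both anti-ICOS arrays, and it was among the dimmest 40% of genes. On the far side of Il18r1, the adjacent gene Il1rl1 was not analysed here, and the next one, Il1rl2, a receptor of IL-36, was higher than replicates 1 to 3 by 0.43 in replicate 4 and by 0.33 with anti-ICOS, and the transporter gene Slc9a4 by 0.018 and by -0.0080. Slc9a4 is the next gene on the Il18rap side, and it too was among the dimmest 40% of genes.

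Markers of other cells, some of which can express Th1 program genes, were read beside them. The 9 measured NK cell markers had a median difference of 0.32, and their summed intensity was 2648 to 2864 in anti-CD3 replicates 1 to 3, 3516.5 in replicate 4, and 3566 to 3587 with anti-ICOS. Such sums mostly follow the brightest genes of a list. These were Klrd1, at 10.97 to 11.31 on the log2 scale, for NK cells and H2-Ab1, at 12.41 to 12.64, for dendritic cells. The NK receptor gene Ncr1, which had the smallest p of this list, read 5.60 to 5.86 on the anti-CD3 arrays, with replicate 4 at 5.64, and 6.34 and 6.54 with anti-ICOS. Both anti-ICOS arrays were above all 4 anti-CD3 arrays in 4 of the 9 NK markers, against 8.51% of all genes. These were Ncr1, Tyrobp, Gzma and Klrb1c. Tyrobp, with the largest difference of this list at 1.29, read 8.15 in replicate 4 and 8.87 and 8.99 with anti-ICOS. For Klrk1 and Klrd1 replicate 4 was instead the highest array. Klrk1 read 8.73 in replicate 4 against 8.61 and 8.55 with anti-ICOS, and Klrd1 11.31 against 11.21 and 11.20. Of the 9 NK markers 5, with Ncr1 as 1 of them, were among the dimmest 40% of genes, and an array intensity has no true 0. The 4 CD8 T cell markers had a median of 0.094 and summed to 4273.5 to 4566.5, 5219 and 5056.5 to 5057 in the same order of arrays. The 9 monocyte and macrophage markers had a median of 0.32 and summed to 909 to 948, 1396 and 1567 to 2143. The 10 dendritic cell markers, with Flt3 called higher by 1.26 ± 0.087 (limma adjusted p = 0.0032), had a median of 0.26 and summed to 6403 to 6845, 6599 and 8083 to 8280. The 7 B cell markers had a median of 0.19 and summed to 17785 to 19816, 21781 and 19848 to 21892. The 9 T cell markers had a median of -0.14, and summed to 33640 to 35696, 31740 and 29600 to 30958. Against replicate 4 alone the median was 0.26 for dendritic cell markers, 0.28 for monocyte and macrophage markers and 0.021 for NK cell markers. It was -0.10, -0.071 and -0.074 for CD8 T cell, B cell and T cell markers, in that order. The Th1 program genes had 0.024 there, and all genes -0.013. Single markers lay far from these medians. Against replicate 4 alone Ccl22 and Flt3 of the dendritic cell list differed by 1.28 and 1.16. Of the NK cell list, Tyrobp differed by 0.78 and Klrk1 by -0.15. These 4 markers were picked after their values were seen. The part of these cells in the Th1 program values was not tested.

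**Figure D4:**
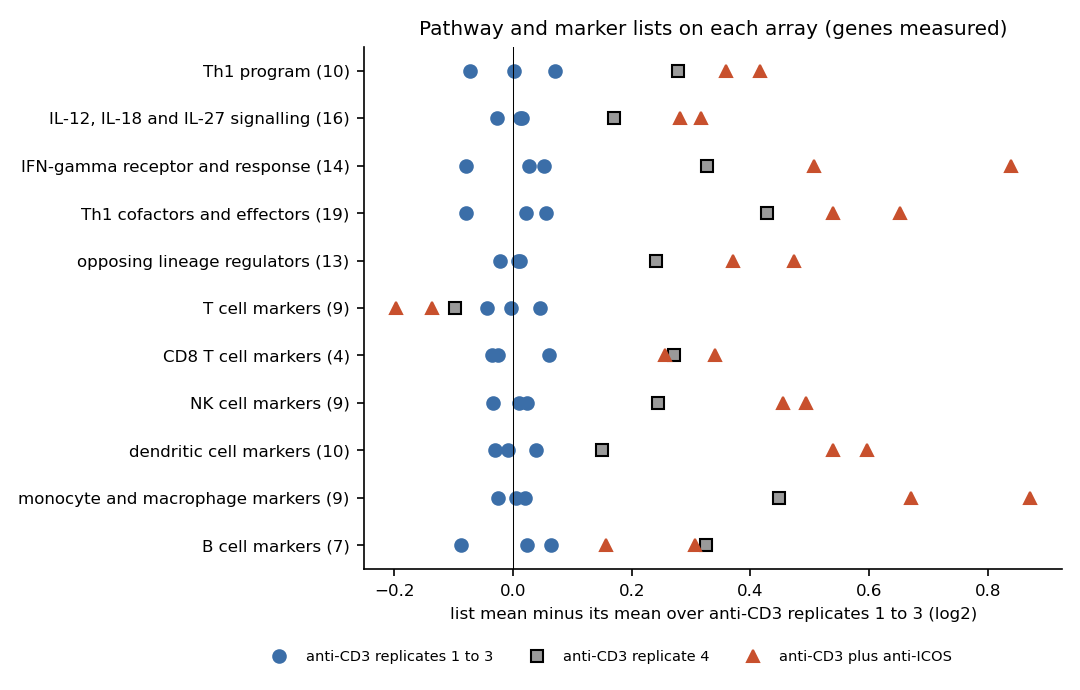
Mean log2 level of each list on each array, less its mean over anti-CD3 replicates 1 to 3; circles are those replicates, the square is anti-CD3 replicate 4, triangles are the anti-ICOS arrays, and the number of genes measured stands beside each list. The Th1 program mean lay 0.28 above replicates 1 to 3 in replicate 4 and 0.42 and 0.36 above with anti-ICOS, while T cell markers lay 0.098 below in replicate 4 and 0.20 and 0.14 below with anti-ICOS.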

How the data were processed

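Total RNA of 6 cultures (1 ug each, biotin-labelled) was hybridised to 1-colour arrays, and groups and replicate numbers come from the sample titles. The values deposited by the authors are linear intensities, 1 per probe set, from 7.23 to 22176. Per the submitters' processing notes MAS5 was used; how background and arrays were adjusted is not stated in the sources used here, so centring stays unknown. Of 34760 probe sets 21640 carried 1 gene symbol, 1321 several and 11799 none here; the brightest probe set of each gene gave 19937 genes. Values were analysed as log2(intensity + 16), which makes fold changes of dim genes smaller. Both groups entered 1 model in limma 3.58.1 (R 4.3.3) on all 6 arrays with no filter (linear fit with moderated variance, residual df of 4), and two-sided p-values were Benjamini-Hochberg adjusted over all genes, threshold 0.05. The number of arrays limits the precision. The steps were tested on simulated arrays with less noise than the real ones and none like anti-CD3 replicate 4. That checks the code and does not give the error rate on these arrays.

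The members and lists were chosen with earlier results of these data known. Named besides the 10 members are the 3 genes of smallest p and any called gene of each pathway list, and the 5 genes most like Ifng; other genes are named as picked after their values were seen, or as list markers and neighbours. Some listed genes had no probe set with 1 symbol here and are not analysed. Motifs were searched with Python 3.11.15 in the 250 bases before RefSeq starts (GRCm38.p6), and plots were drawn with matplotlib 3.10.9.

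Alternatives varied the normalization (quantile, median), a filter on the dimmest 40% of genes, the variance prior, array weights, the handling of probe sets, the offset (1 or 64), the replicate block, the reference array and the threshold, and left out each array once.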

Additional observations from a re-analysis of the deposited data

Results flagged for a closer look

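Among the 26 genes named by rule, 2 had a single anti-CD3 array far from the other anti-CD3 arrays, in both cases replicate 4. Chance alone sets about 1 in 20 groups apart, and the share over all genes was not computed. Cxcr3 read 11.41 in replicate 4 against 10.95 to 10.98 in replicates 1 to 3, and Maf read 8.78 against 7.88 to 7.93. For Cxcr3 the gap was 0.932 of the range of the 4 arrays and for Maf 0.947. Both values lay toward those with anti-ICOS, which were 11.36 and 11.44 for Cxcr3 and 9.32 and 9.10 for Maf. The gap also passed Dixon's limit in listed genes outside these 26. In Lyz2 (0.963), Tyk2 (0.929) and Nkg7 (0.917) the array apart was replicate 4, and in Ciita (0.881) it was replicate 3. These examples were picked after their values were seen.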

How the results depend on the processing

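The count of called members was 0 of 10 with all arrays, 7 with array weights, 7 with the replicate block and 0 to 6 when 1 array was left out, the 6 without anti-CD3 replicate 4. Array weights gave replicate 4 the lowest weight, 0.15, against 4.53, 1.07 and 0.38 for replicates 1 to 3. Over all genes the count was 54 with all arrays, 9413 with array weights, 6551 with the replicate block, 28 with an offset of 64, 35 with replicate 4 as the only reference, 85 at a threshold of 0.1 and 16 to 5930 with 1 array left out. Of the pathway genes 1 was called, 47 with array weights, 37 with the replicate block, 2 with an offset of 1, 0 with an offset of 64, 0 with replicate 4 as the only reference, and 0 to 40 with 1 array left out; these settings were added for this count after the data were seen. With 1 array left out, the Tbx21 difference ran from -0.00078 to 0.089, and no other member changed sign. The median difference of the members, 0.29, was 0.024 with replicate 4 as the only reference and 0.24 to 0.32 with 1 array left out. In the replicate block, anti-CD3 replicates 3 and 4 have no partner and drop out, so it compares 2 pairs; deviations of same-numbered arrays correlated at -0.039 and 0.10, so the arrays share only a number. Signs turned for Tbx21 with quantile normalization (-0.024), the replicate block (-0.0070) and without anti-CD3 replicate 3 (-0.00078). With replicate 4 as the only reference they turned for Runx3 (0.037), Stat4 (0.0048), Il18r1 (-0.11) and Cxcr3 (-0.016), and with quantile normalization for Stat4 (0.0098). None of these reversed values passed the test. Over the 10 genes and all settings, 142 values kept direction and side of the threshold, 20 passed the threshold and 8 turned sign. For the members that passed in another setting the cause was not tested.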
